A study of Homo sapiens with 5 samples.

Results

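ZBTB7A binding was examined around 6 genes of the ZBTB family, ZBTB7A itself, its close relatives ZBTB7B and ZBTB7C, and ZBTB16, BCL6 and ZBTB10. The binding sites are peaks called from chromatin immunoprecipitation and sequencing (ChIP-seq), in which an antibody pulls down the DNA that a protein occupies. A peak was taken as a member when its summit, the position of highest signal, lay within 50 kb of the span of one of the genes. By this rule 159 of the 196770 deposited peaks were members. They comprised 26 of the 34120 peaks of the DHT list, 105 of the 124868 peaks of the FBS list and 28 of the 37782 peaks of the CSS list. Of the 159, 5 lay near ZBTB7A, 33 near ZBTB7B, 41 near ZBTB7C, 41 near ZBTB16, 5 near BCL6 and 34 near ZBTB10.

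The cells were VCaP, an established prostate cancer line with an active androgen receptor and a TMPRSS2-ERG fusion. The DHT cells received 10 nM dihydrotestosterone for 4 h in 5% hormone-depleted serum (2 libraries). The CSS cells received vehicle for 4 h in the 5% depleted serum (2 libraries). The FBS cells grew in 10% full serum (1 library). The treatment text of the FBS library is the same as that of the others, so its culture was read from its condition label. The labels name this single line and 1 ZBTB7A antibody for all conditions, and no genetic change. Each condition is held in 1 peak list, so there is no spread between replicates and no test between conditions. The lists carry no read totals, and their depth is unknown. The fold enrichment over background and the −log10 q of a peak, its significance after correction, are the authors' values and rank peaks only within their own list. A peak called high or highest is so by −log10 q.

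ZBTB proteins join an N-terminal BTB domain, which pairs the proteins and recruits corepressors, to C-terminal zinc fingers that read DNA. Most are known as repressors that settle cell fate, and some, BCL6 among them, bind their own gene. ZBTB7A, also called LRF or Pokemon, silences fetal globin genes in red cells and has been studied in prostate cancer. ZBTB7B (ThPOK) directs T cells to the helper lineage, ZBTB7C is the least studied of the ZBTB7 trio, ZBTB16 (PLZF) maintains germline stem cells and is induced by androgen in prostate cells, BCL6 governs germinal centre B cells, and ZBTB10 is known as a repressor of Sp factor genes.

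The stretches upstream of ZBTB7A, with no peak near its 5′ end in any list, and of ZBTB7B, with such peaks in each list, are shown. The highest ZBTB7B peaks lay elsewhere, 15.1 kb inside in DHT, 28.4 kb upstream in FBS and 41.0 kb upstream in CSS. At the 5′ end ZBTB10 was higher than ZBTB7B in DHT (−log10 q 8.37 against 6.04) and CSS (11.1 against 5.49). In FBS ZBTB7B was higher (21.3 against 11.3). Each stretch is the 250 bases before a RefSeq transcript start on GRCh38.p14, 5′ to 3′ on the strand of the gene. Capitals mark a GC-box word, GGGGCGG, read on either strand.
ZBTB7A start 1, chr19:4066900-4067149, minus strand: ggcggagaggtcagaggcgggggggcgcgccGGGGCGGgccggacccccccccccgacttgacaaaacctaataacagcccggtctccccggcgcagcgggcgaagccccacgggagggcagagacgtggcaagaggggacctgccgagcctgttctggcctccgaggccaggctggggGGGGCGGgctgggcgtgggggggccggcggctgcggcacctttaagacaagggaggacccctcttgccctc
ZBTB7A start 2, chr19:4065530-4065779, minus strand: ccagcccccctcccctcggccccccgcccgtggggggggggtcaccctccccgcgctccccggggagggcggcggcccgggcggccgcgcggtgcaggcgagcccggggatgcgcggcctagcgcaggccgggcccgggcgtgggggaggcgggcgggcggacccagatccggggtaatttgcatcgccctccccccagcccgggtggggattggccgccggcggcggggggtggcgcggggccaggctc
ZBTB7B start 1, chr1:155002399-155002648, plus strand: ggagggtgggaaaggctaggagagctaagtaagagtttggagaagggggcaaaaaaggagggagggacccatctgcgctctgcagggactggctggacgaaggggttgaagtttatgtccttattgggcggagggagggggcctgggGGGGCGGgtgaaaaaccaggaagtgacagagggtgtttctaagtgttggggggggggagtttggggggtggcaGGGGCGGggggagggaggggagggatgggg

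Both ZBTB7A stretches were rich in G and C, at 74.4% and 84%, against 62% for the ZBTB7B stretch shown, 70% for ZBTB7B start 2 and a median of 58% over the 35116 promoters of the RefSeq table. The second ZBTB7A stretch had more G and C than 99.3% of them. BCL6, also without a 5′ end peak, had 54.4% and 50.8%. ZBTB7C, with such peaks, had 44.8%, 54.8% and 50.8%. The contrast between ZBTB7A and ZBTB7B thus did not extend to these genes. The table held 9 starts for 4 of the 6 genes, with none for ZBTB16 and ZBTB10. A set of 3 words was searched on both strands, GACCACC, the core of ZBTB7 sites selected in vitro, CTTCCCC, part of the ZBTB7A site in the fetal globin promoter, and GGGGCGG. None of the words contains another. The first, GACCACC, was in 0 of the 9 stretches and in 2.42% of all promoters over the same length, and CTTCCCC was in 0 of the 9 and in 11.3% of all. GGGGCGG occurred 2 times upstream of ZBTB7A start 1, 2 times upstream of ZBTB7B start 1 and 3 times upstream of ZBTB7B start 2, which overlaps it, and 29.3% of all promoters held it. These starts are on another build than the peaks and were not placed among them.

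The ZBTB7A gene carried no ZBTB7A peak in any list. Its span on hg19 (chromosome 19, 4.045 to 4.067 Mb) held 0 DHT, 0 FBS and 0 CSS peaks. The summit nearest to its 5′ end lay 56.7 kb away in DHT, 17.5 kb away in FBS and 50.5 kb away in CSS, all on the upstream side. Those of DHT and CSS lie past the 50 kb limit and are not members. The 1 DHT member lay 37.6 kb beyond the 3′ end of the span, with a fold enrichment of 5.65 and a −log10 q of 4.78. An FBS peak overlapped it (fold enrichment 4.11, −log10 q 5.36), and the 1 CSS member lay beside both without overlap, 37.1 kb beyond the span (5.33 and 4.39). On the GRCh38 gene map the neighbours within 50 kb are PIAS4 and MAP2K2. The other 2 members near ZBTB7A were FBS peaks 1.97 kb beyond the 3′ end and 17.5 kb before the 5′ end, with −log10 q of 3.52 and 2.36.

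Around ZBTB7A the density of peaks was 8.20 per Mb in DHT, 24.6 per Mb in FBS and 8.20 per Mb in CSS. Chromosome 19 as a whole held 21.4, 50.5 and 23.5 peaks per Mb in these lists. The window of the gene thus had 0.384, 0.487 and 0.349 times the density of its chromosome in DHT, FBS and CSS. BCL6 was also below its chromosome, at 0.755, 0.560 and 0.687 times. The other 4 genes were above theirs in each list. The chromosome density covers all the sequence between its first and last peak, and windows around other genes were not counted. The ratios thus do not show whether these windows differ from those of other genes.

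**Figure D1:**
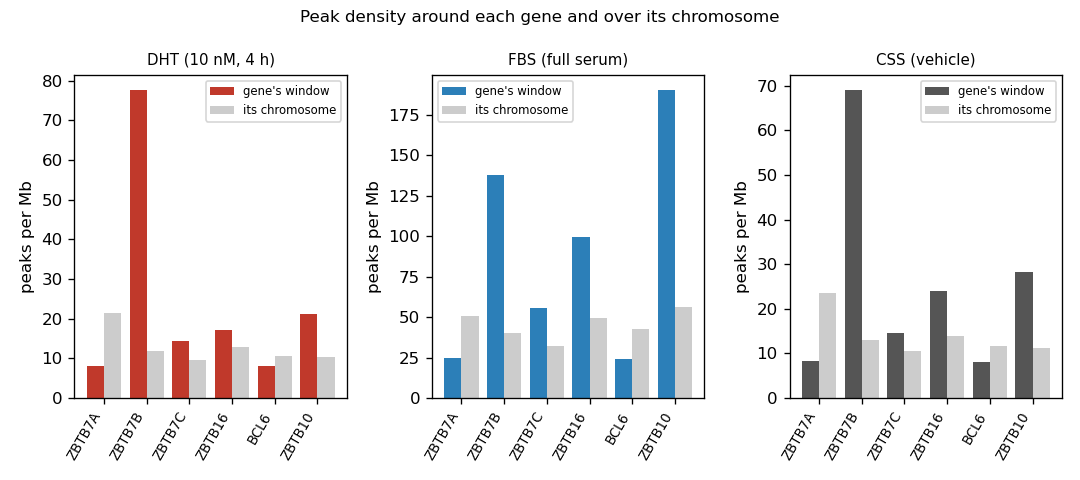
Peaks per Mb in the window of each gene (coloured bars) and over its whole chromosome (grey bars), for the DHT, FBS and CSS lists; the vertical scales differ between panels. ZBTB7A and BCL6 sit below their chromosomes in each list, and ZBTB7B stands highest in DHT (77.6 per Mb) and CSS (69.0 per Mb), while ZBTB10 stands highest in FBS (190.1 per Mb).

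ZBTB7B held the peak with the highest −log10 q of the 6 genes in each list and the densest peaks in DHT and CSS. By fold enrichment the top member was at ZBTB7B in DHT (11.4), at ZBTB7C in FBS (6.97, against 5.81 at ZBTB7B) and at ZBTB16 in CSS (12.7, against 9.17 at ZBTB7B). Its window held 9 DHT, 16 FBS and 8 CSS peaks, or 6.59, 3.42 and 5.30 times the density of chromosome 1. This part of the genome is crowded: 11 other protein-coding genes lie within 50 kb of ZBTB7B on GRCh38, among them PYGO2, SHC1, CKS1B, FLAD1, DCST2 and ADAM15, so that a peak here need not belong to ZBTB7B. The highest DHT member of all lay inside the gene toward its 3′ end, in the region chr1:154989609-154990416, 15.1 kb past the 5′ end. It had a fold enrichment of 11.4 and a −log10 q of 33.5 in DHT, 5.25 and 35.5 in FBS, and 9.12 and 19.7 in CSS. It ranked 27 by q-value in the DHT list, 123 in the FBS list and 875 in the CSS list, and so lay above 99.9%, 99.9% and 97.7% of the peaks of these lists.

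A second strong region, chr1:154933823-154935031, lay 40.9 kb upstream of ZBTB7B. Its −log10 q was 17.6 in DHT, 26.3 in FBS and 23.4 in CSS, and ranked 371, 312 and 470 in the lists. The highest member in the FBS list was a different one, chr1:154946389-154946938, 28.4 kb upstream, with a fold enrichment of 5.81 and a −log10 q of 42.6 (rank 78). No DHT or CSS peak overlapped it. A weaker region with a peak in each list, chr1:155036076-155036822, had a −log10 q of 4.58 in DHT, 2.84 and 5.77 for 2 peaks in FBS, and 8.33 in CSS.

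The ZBTB7C and ZBTB16 loci are long and their peaks were spread over the spans of the genes. RefSeq lists 3 starts for ZBTB7C at separate positions, which were not placed on hg19. A peak inside the span may thus lie near one of these starts. ZBTB7C, with a span of 383 kb, had 7 DHT, 27 FBS and 7 CSS members, of which 6, 16 and 5 lay inside the span. Deep in the gene, chr18:45688005-45688544 (247.7 kb past the 5′ end) held the highest ZBTB7C member of DHT, with a fold enrichment of 7.72 and a −log10 q of 8.35, and of CSS, with 6.60 and 6.46. The FBS peak there had 5.80 and 9.25. The other site in each list was chr18:45662987-45663444, with −log10 q of 7.20 in DHT, 3.8 in FBS and 4.39 in CSS. The highest FBS member of ZBTB7C was elsewhere, 387 kb past the 5′ end and just beyond the span, at 6.97 and 11.3, with no DHT or CSS partner.

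ZBTB16 had 5 DHT, 29 FBS and 7 CSS members, 4, 22 and 6 of them inside its span of 191 kb. Its highest DHT and CSS members were the same site in the first part of the gene, chr11:113940798-113941111, 10.9 kb past the 5′ end. This site had a fold enrichment of 8.93 and a −log10 q of 10.5 in DHT and 12.7 and 18.6 in CSS, and no FBS peak was called there. The highest FBS member lay upstream of the gene, chr11:113906624-113907322. This site had a −log10 q of 5.37 in DHT, 15.4 in FBS and 3.70 in CSS. It ranked 16299, 1624 and 25678 in these lists. Near the 3′ end, chr11:114120223-114120511 was called in DHT (6.21) and CSS (8.5) and not in FBS. NNMT is the next protein-coding gene on that side on GRCh38.

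**Figure D2:**
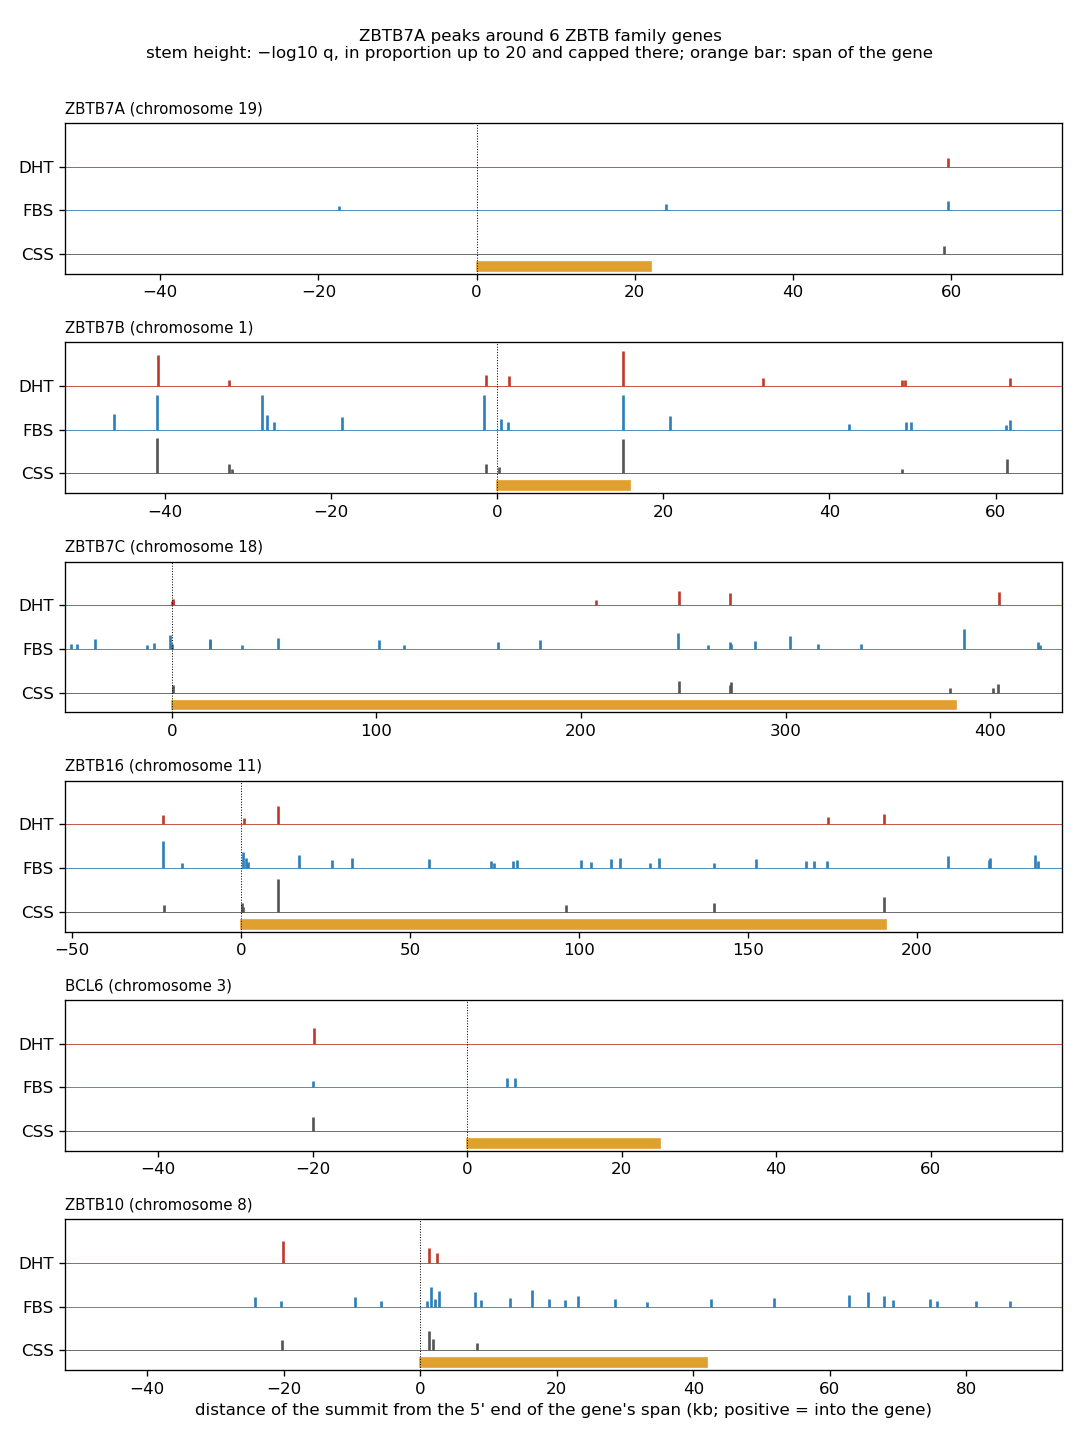
Position of each member around the 6 genes, in kb from the 5′ end of the span (orange bar), with stems for the DHT, FBS and CSS lists from top to bottom. Stem height is −log10 q, in proportion up to 20 and capped there; the ZBTB7A span is empty in each list, while 13 of the 27 FBS peaks of ZBTB10 fall inside its span.

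BCL6 had 1 DHT, 3 FBS and 1 CSS member. The single region with a peak in each list lay 19.9 kb upstream, chr3:187483763-187484113. Its fold enrichment was 7.95 in DHT, 4.36 in FBS and 7.55 in CSS, and its −log10 q was 8.85, 3.52 and 8.19. The other 2 FBS peaks were inside the gene, 5.2 and 6.17 kb past the 5′ end, with −log10 q of 5.58 and 5.54. No DHT or CSS peak lay inside the span. RTP2 is the other protein-coding gene within 50 kb on GRCh38.

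ZBTB10 on chromosome 8 had 3 DHT, 27 FBS and 4 CSS members. Its FBS density of 190.1 per Mb was 3.38 times that of the chromosome. Chromosome 8 held 10.3 DHT, 56.3 FBS and 11.3 CSS peaks per Mb, and its FBS density was the highest of the 6 chromosomes. In FBS alone 22 of the 26 ZBTB10 regions were called, against 68.4% of the regions of the whole lists. The count was 26 of 33 at ZBTB16, 23 of 33 at ZBTB7C and 8 of 19 at ZBTB7B. ZBTB7A had 2 of 4 and BCL6 had 2 of 3. The share on chromosome 8 was not counted, so no excess particular to ZBTB10 is shown. Within 50 kb of ZBTB10, as of ZBTB7C, there are 0 other protein-coding genes on GRCh38. Its highest DHT member lay 20.2 kb upstream, in chr8:81376550-81376943, with a fold enrichment of 9.90 and a −log10 q of 12.4 in DHT, 3.84 and 3.52 in FBS, and 6.25 and 5.85 in CSS. The peak ranked 1881 in DHT, 98439 in FBS and 15114 in CSS. A further pair of strong peaks fell just outside the limit of the rule, 51.4 kb from the span, with −log10 q of 14.2 in DHT and 15.8 in CSS, and the nearest peak outside was a CSS peak 50.5 kb from ZBTB7A (3.20). Just inside it were FBS peaks near ZBTB7C at 49.0 and 46.3 kb (2.82 and 2.84).

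At the 5′ ends, 4 of the 6 genes had a peak within 2 kb in each list, and they were the same genes, ZBTB7B, ZBTB7C, ZBTB16 and ZBTB10. ZBTB7A and BCL6 had none, also within 5 kb. The spans are given to 1 kb, so these distances are no finer than that. Where RefSeq lists more than 1 start, as for ZBTB7C and BCL6, only the edge of the span was used. Counting peaks of −log10 q 5 or more, there were 2 such genes in DHT, 4 in FBS and 3 in CSS, and within 1 kb there were 2, 4 and 3. How many genes have such a peak genome-wide was not analysed here, since no hg19 annotation was used.

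At the ZBTB7B 5′ end, the DHT peaks had −log10 q of 6.04 (1.38 kb upstream) and 5.95 (1.46 kb inside), the FBS peaks 21.3 (1.63 kb upstream), 6.17 and 4.44, and the CSS peaks 5.49 (1.41 kb upstream) and 3.82. The upstream FBS peak was 1416 bp wide, and it overlapped a DHT peak of 286 bp and a CSS peak of 311 bp. Fold enrichment there was 3.77 in DHT, 3.22 in FBS and 3.51 in CSS. The FBS peak thus ranked 581 in its list although its fold enrichment was below the FBS median of 4.56.

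ZBTB7C showed a row of weak peaks around its 5′ end. The 3 DHT peaks had −log10 q of 2.66, 3.47 and 2.71, the 3 FBS peaks 3.01, 2.66 and 7.91, and the 1 CSS peak 4.47. The DHT peaks lay at percentiles 6.32, 17.6 and 6.67 of their list, where 50 is the middle, and the CSS peak at 40.6. The FBS peak 0.95 kb upstream was high in its list, at percentile 90.5, and no DHT or CSS peak overlapped it. Over these peaks no region was called in all 3 lists.

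The ZBTB16 5′ end had 1 DHT peak (−log10 q 3.53), 2 FBS peaks (9.13 and 5.68) and 2 CSS peaks (5.36 and 3.01). The first FBS peak overlapped the DHT peak and both CSS peaks. ZBTB10 had 1 DHT peak there (8.37), 2 FBS peaks (3.52 and 11.3) and 2 CSS peaks (11.1 and 6.44), all just inside the gene between 0.94 and 1.80 kb. The DHT summit at 1.26 kb and the CSS summit at 1.24 kb were 15 bp apart.

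**Figure D3:**
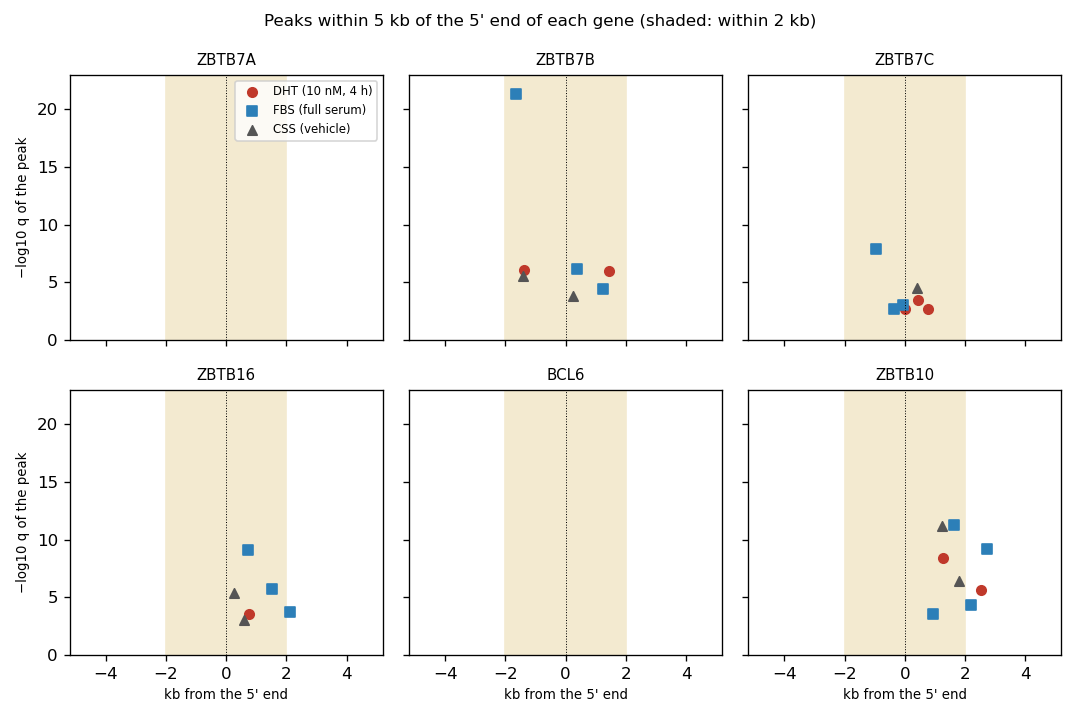
−log10 q of each peak within 5 kb of the 5′ end of each gene, for DHT (circles), FBS (squares) and CSS (triangles); shading marks 2 kb on either side. The ZBTB7A and BCL6 panels hold no peak, and the highest point is the FBS peak of ZBTB7B at 21.3.

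The DHT and CSS lists were then set side by side at these loci, the comparison of androgen with vehicle. Of the DHT members, 17 of 26 (65.4%, exact 95% interval 44.3 to 82.8%) overlapped a CSS peak by at least 1 bp, against 63.9% of the whole DHT list. Of the CSS members, 17 of 28 (60.7%, 40.6 to 78.5%) overlapped a DHT peak, against 56.8% of the whole list. Both shares were close to the background, within wide intervals. The intervals cover counting error only, and neighbouring peaks are not independent.

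Summits of the 17 overlapping pairs were 5 to 252 bp apart, with a median of 52 bp, and 12 pairs lay within 100 bp. The DHT peak stood at a higher percentile of its list than its CSS partner in 11 of the 17 pairs (64.7%), against 43.4% of 22681 pairs over the whole lists. No interval was computed for this share, the pairs are few and several lie at the same gene. The gap is thus not shown to exceed counting error. The 3 pairs of ZBTB7C away from the 5′ end of its span were at percentiles 74.1, 73.0 and 80.6 in DHT. Their CSS partners were at 44.2, 39.7 and 66.7. The pair at the 5′ end of the span was at 17.6 in DHT and 40.6 in CSS. The ZBTB10 site 20.2 kb upstream was at 94.5 in DHT and 59.9 in CSS. In the other direction, the ZBTB7B site 32.3 kb upstream was at 13.9 in DHT and 56.6 in CSS, and the one 61.7 kb past the 5′ end was at 41.3 in DHT and 78.8 in CSS. ZBTB16 had both kinds: 52.1 in DHT and 27.9 in CSS at the upstream site, and 89.7 in DHT and 97.2 in CSS at 10.9 kb inside. With 1 list per condition and lists of unequal length, these values give the order within each list and cannot show a change with androgen.

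**Figure D4:**
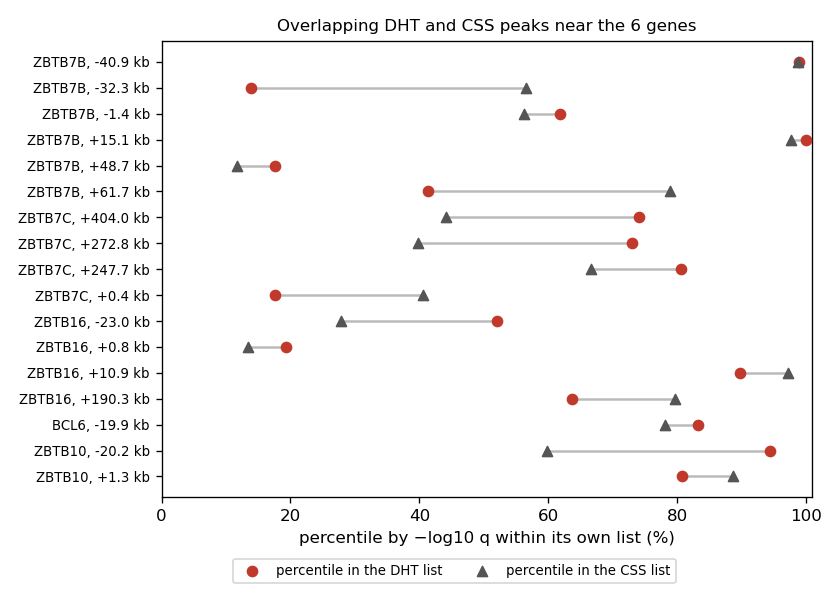
Percentile by −log10 q within its own list for the 17 overlapping DHT (circles) and CSS (triangles) peaks, labelled by gene and by the distance of the DHT summit from the 5′ end. The circle lies to the right of the triangle in 11 of the 17 pairs, and the 2 strongest ZBTB7B sites are near the top of both lists.

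Merging overlapping members gave 118 regions. Of these, 4 were called in DHT alone (3.39%, against 5.1% of the regions of the whole lists), 83 in FBS alone (70.3%, against 68.4%) and 6 in CSS alone (5.08%, against 7.57%). These shares were near those of the whole lists. The 4 DHT-only regions were 1 near ZBTB7B, 2 near ZBTB7C and 1 near ZBTB16, with −log10 q between 2.66 and 4.67. The 6 CSS-only regions, 2 of them near ZBTB7C and 1 near each other gene but BCL6, had −log10 q between 2.36 and 4.50. Each of these 10 peaks lay below a −log10 q of 5, a value reached by 53.4% of the whole DHT list and 48.7% of the whole CSS list. The share among all DHT-only and CSS-only regions was not counted, so this is not shown to be a trait of these loci.

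Full serum was compared with depleted serum next. An FBS partner was found for 16 of 26 DHT members (61.5%, 40.6 to 79.8%), against 48.2% of the whole DHT list, and for 16 of 28 CSS members (57.1%, 37.2 to 75.5%), against 44.1% of the whole CSS list. Both backgrounds lie inside the intervals. Of the 105 FBS members, 22 (21.0%, 13.6 to 29.99%) had a DHT or CSS partner, against 17.2% of all FBS peaks. By gene, ZBTB7B had a partner for 8 of 16 FBS peaks, while ZBTB16 had one for 3 of 29, ZBTB7C for 4 of 27 and ZBTB10 for 5 of 27.

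The FBS list is the longest. When each list was held to its 34120 highest peaks by q-value, the members numbered 26 in DHT, 33 in FBS and 26 in CSS. By gene, ZBTB7A and BCL6 each had 1 peak in DHT, 0 in FBS and 1 in CSS. ZBTB7B had 9, 10 and 7, ZBTB7C 7, 6 and 6, ZBTB16 5, 9 and 7, and ZBTB10 3, 8 and 4. At equal length ZBTB7B, ZBTB16 and ZBTB10 had more FBS than DHT or CSS peaks, by 1 over DHT at ZBTB7B, while ZBTB7A and BCL6 had fewer and ZBTB7C had about as many in each list.

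A total of 11 regions held a peak in all 3 lists: 4 at ZBTB7B, 2 at ZBTB7C, 2 at ZBTB16, 1 at BCL6, 2 at ZBTB10 and 0 at ZBTB7A. They made up 9.32% of the 118 regions, against 7.67% of the 151256 regions of the whole lists. Counted by peaks, 11 of 26 DHT members (42.3%), 11 of 105 FBS members (10.5%) and 11 of 28 CSS members (39.3%) had a partner in both other lists, against 34.8%, 9.59% and 31.2% of all peaks of these lists. The 11 included both strong ZBTB7B sites and the first part of ZBTB10, chr8:81397817-81399125, which had −log10 q of 8.37 in DHT, up to 11.3 in FBS and up to 11.1 in CSS.

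In strength the DHT and CSS members were close to their lists as a whole, while the FBS members differed by measure. Of the DHT members, 14 of 26 (53.8%) had a −log10 q of at least 5, against 53.4% of the list, and in FBS 47 of 105 (44.8%), against 40.9%, and in CSS 14 of 28 (50%), against 48.7%. A −log10 q of at least 10 was reached by 4 DHT members (15.4%, list 11.8%), 7 FBS members (6.67%, list 4.92%) and 4 CSS members (14.3%, list 14.5%). Median fold enrichment was 5.56 in DHT, 3.95 in FBS and 5.46 in CSS, against 5.70, 4.56 and 5.58 over the whole lists. Median widths were 272, 272 and 252 bp, against 249, 258 and 239 bp. Of these strong members, ZBTB7B held 2 of the 4 in DHT, 4 of the 7 in FBS and 2 of the 4 in CSS. Of all members it held 9 of 26 in DHT, 16 of 105 in FBS and 8 of 28 in CSS. The counts of strong members are small, and the gap between the 2 shares was widest in FBS.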

How the data were processed

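ZBTB7A ChIP-seq peaks of VCaP cells were read from 3 deposited narrowPeak lists, 1 per condition. The labels name 1 list for both DHT libraries and 1 for both CSS libraries, and the sources used here do not say how they were combined. MACS2 (2.0.10.20131216), BWA (0.7.2-r351) and SAMtools (0.1.18) with the hg19 build are named in the submitters' processing notes. Nothing read here names the control, the calling threshold or the read filters. The authors deposited a fold enrichment (a ratio over background) and a −log10 q for each peak, and a score that is the whole part of 10 times the −log10 q for 100% of peaks in each list. The lowest deposited −log10 q was 1.31 in DHT, 1.31 in FBS and 1.33 in CSS.

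The members, gene spans and lists were chosen with earlier results of these data known. Spans were given to 1 kb on hg19. Strands came from RefSeq for ZBTB7A, ZBTB7B, ZBTB7C and BCL6, and from general knowledge for ZBTB16 and ZBTB10. Partners overlapped by at least 1 bp, ranks used −log10 q, and shares have exact Clopper-Pearson intervals. Positions count from 1. Chromosome densities used the stretch between the first and last peak of any list. Neighbouring genes were taken by name from RefSeq GRCh38, and no coordinates were converted. Named peaks were the highest of each gene and list, those within 2 kb of a 5′ end, regions in all 3 lists, the 3 highest members of each list and those at the 50 kb limit. Further peaks and regions named (DHT-only and CSS-only regions, ZBTB16 near its 3′ end, and paired percentiles) were picked with their values in view, outside that rule. The ZBTB7A upstream sequences were added for their contrast with ZBTB7B after the peaks were seen, since the rule took genes with a 5′ end peak. Protein sequences planned for the ZBTB7 trio were not used here. The overlap code gave the same counts as bedtools 2.31.1 for 6 of 6 pairs of lists. Python 3.11.15, pandas 2.3.3, numpy 2.4.6, scipy 1.17.1 and matplotlib 3.10.9 were used.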

Additional observations from a re-analysis of the deposited data

How the results depend on the processing

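Over 71 alternatives to 11 results, 46 values stayed within 1.5 times a count or inside the interval of a share, and 25 moved beyond it. The results are counts and shares without a direction, so a reversal could not occur. Inside the spans alone the members numbered 14 in DHT, 56 in FBS and 16 in CSS, within 10 kb 15, 68 and 17, and those of −log10 q 5 or more 14, 47 and 14. A fold enrichment of at least 5 left 16 in DHT and 18 in FBS, lists of equal length left 33 in FBS, and without ZBTB7B, an alternative chosen after seeing the data, 17 remained in DHT. With peaks within 500 bp counted as partners, the share of DHT members with a CSS partner was 84.6% and of CSS members with a DHT partner 78.6%. With an overlap of 50% of both peaks, 7.62% of FBS members had a DHT or CSS partner, and an FBS partner was found for 23.1% of DHT and 25% of CSS members. With summits within 100 bp these shares were 9.52%, 34.6% and 14.3%. In lists of equal length, 30.3% of FBS members had a DHT or CSS partner and 30.8% of DHT members an FBS partner. The number of genes with a DHT peak at the 5′ end was 2 within 1 kb and 2 for peaks of −log10 q 5 or more. These settings take fewer peaks, a nearer window or another overlap by construction. Shares over the whole lists were not computed under these settings, so the alternative shares cannot be set against a background. No paired analysis was possible because the numbered DHT and CSS libraries are held in 1 list per condition, and no library could be left out for the same reason. Depth is unknown, so a place with no peak is not shown to be unbound.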
